A study of Rattus norvegicus with 16 samples.

Results

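The hexosamine pathway turns fructose 6-phosphate, a sugar of glycolysis, into UDP-N-acetylglucosamine (UDP-GlcNAc), the donor from which cells build N-glycans, hyaluronan and other matrix sugars, sialic acids and the O-GlcNAc mark on cytosolic and nuclear proteins. N-acetylglucosamine (GlcNAc) released when glycans are broken down can re-enter the route through a salvage kinase. In skin the same donor feeds hyaluronan, a main sugar polymer of the dermis. Described here were 10 enzyme genes of this route, a set chosen by the difference between 7 day denervated and naïve skin in these same arrays, where the hexosamine list was already known to be higher. Of the 10 genes, 8 had at least 1 probeset that named no other gene, with 10 probesets between them, among 14217 genes measured in all. Gfpt1 and Uap1, which encode a first and the last step of UDP-GlcNAc synthesis, were not analysed here, Uap1 because its probeset is annotated to another gene as well.

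Expression was measured on 16 Affymetrix rat genome arrays of dorsal hairy skin from adult female Sprague-Dawley rats. There were 6 arrays of naïve skin from rats without surgery, 5 arrays of skin denervated for 7 days and 5 arrays of skin denervated for 14 days by ligation and transection of the cutaneous nerves, all from the rostral denervated zone or its counterpart. The naïve rats had no sham operation, so surgery and denervation cannot be told apart, and each piece of skin also holds cutaneous trunci muscle, which keeps its own nerve supply. The deposited values are log2 values from robust multi-array averaging (RMA), on which a difference of 1 is a doubling of signal, and their precision is limited by the number of arrays.

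Naïve arrays differed among themselves. Across probesets, the lowest correlation between arrays was 0.931 in naïve skin, 0.978 at 7 days and 0.993 at 14 days. A score, the mean over a gene list of each gene's log2 deviation from its mean over all arrays, separated naïve replicates 1 and 2 from the others in 10 hair follicle genes, at 1.69 and 1.85 against -3.58 to -3.31. Naïve replicates 4 and 5 were the lowest of all 16 arrays in 12 macrophage markers, at -1.20 and -1.50, and in 9 fibroblast genes, at -1.09 and -1.87. Defining genes of the labelled tissue were bright, with the basal keratinocyte gene Krt14 at means of 13.04 at 14 days and 13.13 in naïve skin and the muscle gene Acta1 at 13.56 at 14 days and 13.84 in naïve skin, where gene means on these arrays reach 13.99. Where leaving out naïve replicates 1 and 2 or 4 and 5 moved a gene of the 8 across the threshold, its value without them is given. In whole skin, fewer cells of a type and less RNA per cell cannot be told apart.

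Promoters are shown for 3 of the genes described below. Nagk and Gnpnat1 were both lower at 14 than at 7 days, and Gnpda1 was higher at 14 days than in naïve skin. Ogt was lower at 14 days in both of these comparisons, and its promoters were searched but are not printed. RefSeq promoters of the GRCr8 assembly, from 250 bases before to 50 bases after the start, were at hand for 6 of the 8 measured genes. They were searched on both strands for the core of the unfolded protein response element (TGACGTG), the endoplasmic reticulum stress element (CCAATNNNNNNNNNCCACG) and the amino acid response element (TGATGNAA). The last letters of the longer element, read on the other strand, share CGTG with the first motif. The bases upstream of the start are given for Nagk at chr4:117838731-117838980 on the plus strand, Gnpnat1 at chr15:21084436-21084685 on the minus strand and Gnpda1 at chr18:30428631-30428880 on the minus strand, with any match in capitals.
Nagk: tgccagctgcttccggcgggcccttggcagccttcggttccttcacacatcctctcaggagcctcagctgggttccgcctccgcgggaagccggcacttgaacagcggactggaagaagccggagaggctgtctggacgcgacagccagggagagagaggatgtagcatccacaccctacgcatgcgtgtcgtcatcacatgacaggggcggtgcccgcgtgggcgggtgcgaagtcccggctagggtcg
Gnpnat1: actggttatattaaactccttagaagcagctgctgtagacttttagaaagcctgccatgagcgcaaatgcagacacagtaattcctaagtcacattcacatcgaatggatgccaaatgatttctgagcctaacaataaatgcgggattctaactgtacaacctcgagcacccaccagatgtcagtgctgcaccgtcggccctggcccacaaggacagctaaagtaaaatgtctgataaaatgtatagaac
Gnpda1: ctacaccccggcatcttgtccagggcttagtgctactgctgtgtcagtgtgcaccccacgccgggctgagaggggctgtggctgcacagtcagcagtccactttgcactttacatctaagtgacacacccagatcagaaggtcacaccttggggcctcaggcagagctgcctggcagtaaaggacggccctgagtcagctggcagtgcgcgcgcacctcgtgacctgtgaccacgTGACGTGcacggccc
The promoter of Gnpda1 held TGACGTG once, at position -15 from the start site, and 1.81% of 33469 RefSeq promoters of that length hold it. The promoters of the other 5 genes, with 2 for Ogt, had no match to any of the 3 motifs in this window, which 3.98% of promoters match for TGATGNAA and 0.0657% for the longer element. A match in letters is a description and no evidence of binding.

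**Figure D1:**
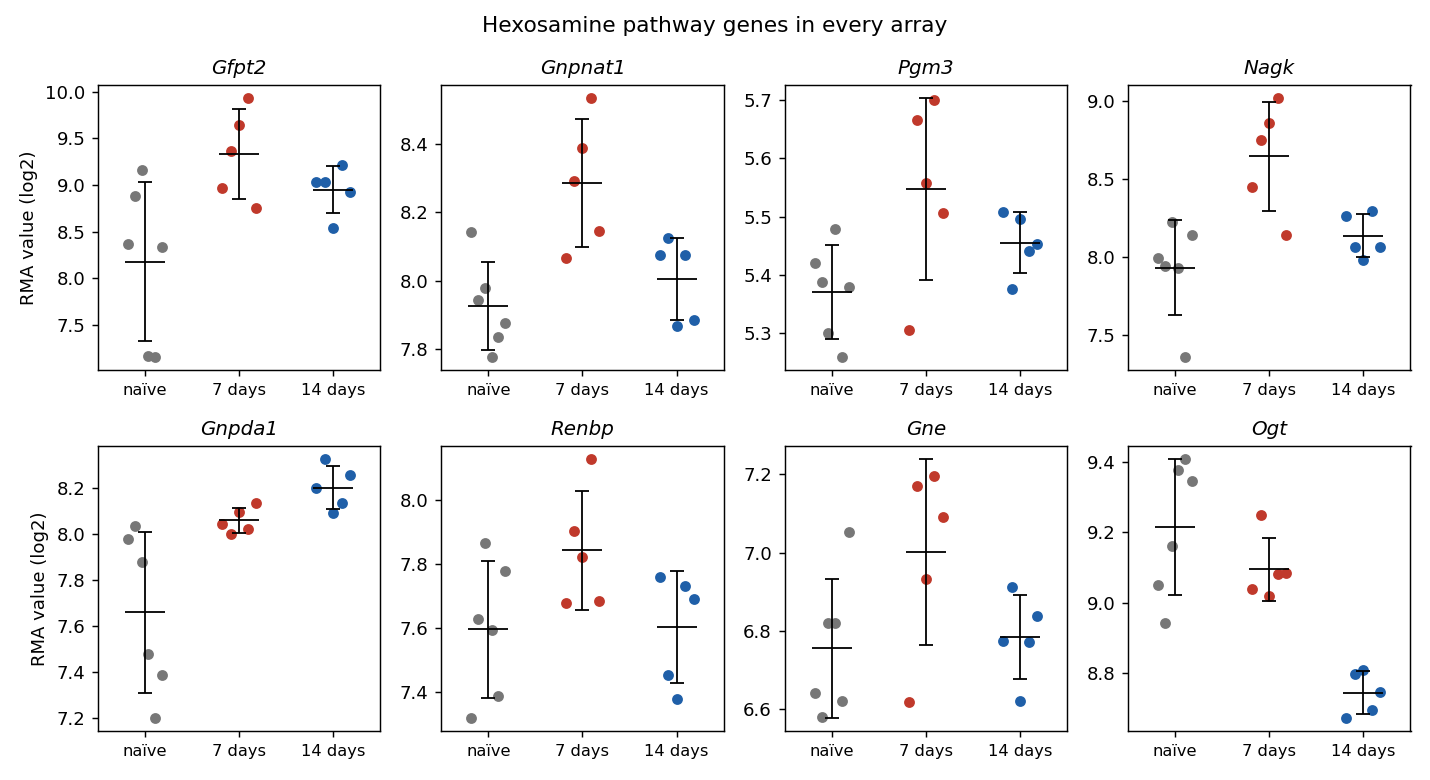
RMA values (log2, vertical axis) of the 8 measured genes in each array of naïve skin and of skin 7 and 14 days after denervation; each point is an array, and the bars give the mean and SD (n = 6, 5 and 5). The vertical axes differ between panels and do not start at 0. Ogt at 14 days lay at 8.67 to 8.81, below every other array, while Gfpt2 in naïve skin ran from 7.15 to 9.16.

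At 7 days the measured genes of synthesis and salvage had higher means than naïve skin, from Pgm3 with a log2 difference of 0.18 to Gfpt2 with 1.16. The value of Pgm3 is over 2 probesets that differed in sign, at 0.44 and -0.09. Since the genes were chosen knowing of the difference between 7 days and naïve skin, the 7 day values are given as a description. By 14 days most means of the synthesis and salvage genes lay closer to naïve skin. Gnpda1, which was higher, and Ogt, which was lower, passed the limma test against naïve skin at 14 days. For Gnpda1 the choice of genes favours such a rise, because this comparison shares its naïve arrays with the one that chose them. Passing at 1 time only does not show a change between the times. Gnpda1 was already at 0.40 at 7 days and differed by 0.14 between the times (limma adjusted p = 0.456). Gfpt2 did not pass at 14 days, although its difference of 0.77 was larger than the 0.54 of Gnpda1.

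Gfpt2 encodes glutamine:fructose-6-phosphate transaminase, an enzyme of the first and rate-limiting step. Its naïve arrays lay at 7.15 at the lowest, 8.35 at the median and 9.16 at the highest, the 7 day arrays at 8.97, 9.36, 9.64, 9.93 and 8.75, and the 14 day arrays at 9.04, 9.03, 8.54, 9.22 and 8.92. All 5 arrays at 7 days and all 5 at 14 days lay above the naïve median, and both groups overlapped the naïve range. The 7 day difference was 1.16 (standard error 0.341), 2.23-fold, and it was 0.65 without naïve replicates 4 and 5, which were the lowest arrays of this gene at 7.16 and 7.15. The 7 day difference passed limma with all arrays, but not in 11 of 16 fits that left out 1 array. Nor did it pass with only the compared groups or with the replicate numbers as a block. This contrast chose the genes, so nothing is read from the pass. At 14 days the difference from naïve skin was 0.77 (standard error 0.341), which did not pass limma (adjusted p = 0.107). It passed without naïve replicates 1 and 2 (0.99, adjusted p = 0.0416) and with array weights (0.75, adjusted p = 0.0309), and it was 0.26 without naïve replicates 4 and 5. A rise from naïve skin is favoured by the choice of genes, so nothing is read from these passes. Against 7 days the difference was -0.39 (standard error 0.357, adjusted p = 0.445).

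Gnpnat1 encodes the acetyltransferase that makes GlcNAc 6-phosphate from glucosamine 6-phosphate and acetyl-CoA. Its values in naïve skin were 7.78 at the lowest, 7.91 at the median and 8.14 at the highest. Its values were 8.07, 8.29, 8.39, 8.53 and 8.15 at 7 days and 8.07, 8.12, 7.87, 8.07 and 7.88 at 14 days. All 5 arrays at 7 days were above the naïve median, and replicate 1 of the 7 day arrays lay inside the naïve range. The 7 day difference was 0.36 (standard error 0.0881), 1.28-fold, and it was 0.30 without naïve replicates 4 and 5. Gnpnat1 fell by 0.28 at 14 days against 7 days (standard error 0.0921, limma adjusted p = 0.0458), a fall that the choice of genes favours. At 14 days it differed from naïve skin by 0.08 (standard error 0.0881, adjusted p = 0.525).

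Pgm3 encodes the mutase that turns GlcNAc 6-phosphate into GlcNAc 1-phosphate. Over the median of its 2 probesets it had a naïve range of 5.26 to 5.48, 7 day values of 5.30, 5.67, 5.56, 5.70 and 5.51, and 14 day values of 5.51, 5.38, 5.50, 5.44 and 5.45. The gene passed in none of the comparisons, with differences of 0.18 at 7 days and 0.08 at 14 days (adjusted p = 0.361 at 14 days). Its probesets did not move together. The first, drawn as a solid line in the plot of probesets, averaged 6.08 ± 0.26 at 7 days (SD, n = 5) against 5.64 ± 0.12 in naïve skin (SD, n = 6), a difference of 0.44, and differed by -0.39 at 14 days against 7 days (standard error 0.105, adjusted p = 0.022 over 20826 probesets). The second, drawn dashed, went the other way, at 0.20 (standard error 0.0651, adjusted p = 0.0417) between those times. Against naïve skin it differed by -0.09 at 7 days (standard error 0.0623, limma adjusted p = 0.367). It lay at 4.87 to 5.32 in all arrays, where 25% of all genes have means below 5.50.

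**Figure D2:**
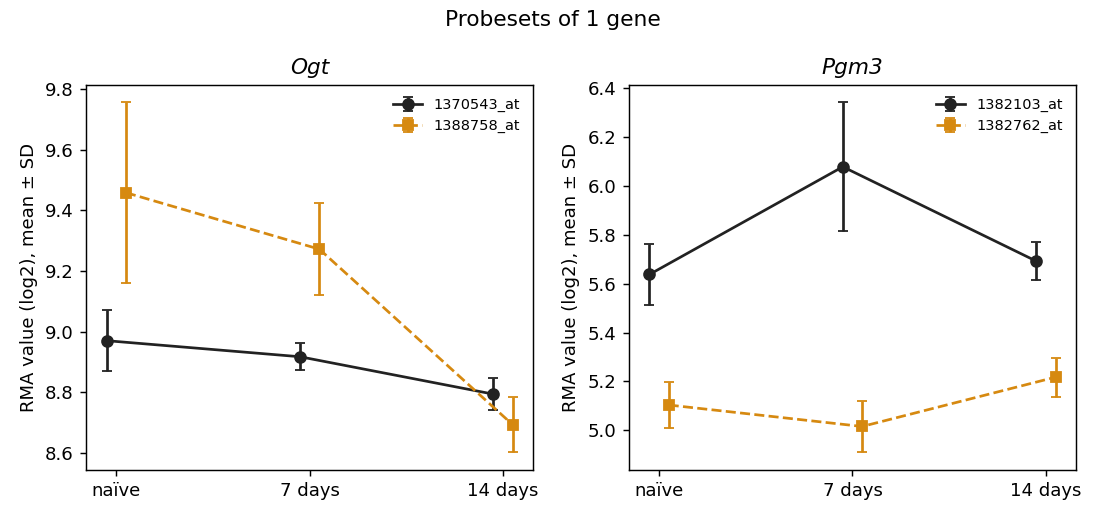
Group means (log2 RMA value, vertical axis, ± SD; n = 6 naïve arrays, 5 at 7 days and 5 at 14 days) of the probesets of Ogt and of Pgm3; solid and dashed lines are different probesets of 1 gene, and the axes do not start at 0. Both Ogt probesets were lowest at 14 days, by -0.77 and -0.18 against naïve skin, whereas the Pgm3 probesets moved in opposite directions from 7 to 14 days.

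Nagk encodes the GlcNAc kinase, which returns GlcNAc set free by lysosomal breakdown to the pathway as GlcNAc 6-phosphate. In naïve skin it lay at 7.36 at the lowest, 7.97 at the median and 8.22 at the highest. At 7 days it was at 8.45, 8.75, 8.86, 9.02 and 8.14, and at 14 days at 8.27, 8.07, 7.98, 8.30 and 8.07. Replicates 1 to 4 of the 7 day arrays stood above every naïve array, and replicate 5 did not. The 7 day difference was 0.71 (standard error 0.161), 1.64-fold, and it was 0.57 without naïve replicates 4 and 5. Nagk averaged 8.14 ± 0.14 at 14 days and 8.64 ± 0.35 at 7 days (SD, n = 5 each), and it fell by 0.51 between those times (standard error 0.168, limma adjusted p = 0.0463). The choice of genes by high 7 day values favours such a fall. The difference of 0.20 from naïve skin at 14 days did not pass (standard error 0.161, adjusted p = 0.362).

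Gnpda1 encodes glucosamine-6-phosphate deaminase, which works against the first step by returning glucosamine 6-phosphate to fructose 6-phosphate and ammonia. It lay between 7.20 and 8.03 in naïve skin (median 7.68), at 8.04, 7.999, 8.10, 8.02 and 8.13 at 7 days and at 8.20, 8.33, 8.09, 8.14 and 8.26 at 14 days. Every 14 day array was above every naïve array, as was the case for 3.69% of all genes. Gnpda1 rose by 0.54 at 14 days (standard error 0.13, 1.46-fold, limma adjusted p = 0.0122), and its 7 day difference was 0.40 (standard error 0.13), which was not past the threshold. The choice of genes, made with the same naïve arrays, favours a rise at 14 days. The 7 day value was 0.24 without naïve replicates 4 and 5, and 0.57 and past the threshold without naïve replicates 1 and 2. The naïve values were divided, with 7.98, 8.03 and 7.88 in replicates 1 to 3 and 7.48, 7.20 and 7.39 in replicates 4 to 6. Without naïve replicates 4 and 5 the 14 day difference was 0.38 and no longer passed (adjusted p = 0.0513), and without naïve replicates 1 and 2 it was 0.72 (adjusted p = 0.000104). From 7 to 14 days Gnpda1 differed by 0.14 (standard error 0.136, adjusted p = 0.456).

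Renbp and Gne encode enzymes that handle the N-acetylmannosamine from which sialic acids are made. Renbp encodes an epimerase that converts GlcNAc and N-acetylmannosamine into each other, also known as renin-binding protein, and Gne encodes the bifunctional enzyme that commits UDP-GlcNAc to sialic acid synthesis. Renbp lay at 7.32 to 7.86 in naïve skin, at 7.68 to 8.13 at 7 days and at 7.38 to 7.76 at 14 days. Gne lay at 6.58 to 7.05 in naïve skin, at 6.62 to 7.20 at 7 days and at 6.62 to 6.91 at 14 days. The groups of both genes overlapped at both times. Their 7 day differences were alike in size, at 0.25 (standard error 0.113) for Renbp and 0.25 (standard error 0.107) for Gne. At 14 days they were 0.01 (adjusted p = 0.972) and 0.03 (adjusted p = 0.866), and their signs changed with the arrays and scaling used. Neither passed between 14 and 7 days, where Renbp was at -0.24 (adjusted p = 0.152) and Gne at -0.22 (adjusted p = 0.168).

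Ogt encodes O-GlcNAc transferase, which uses UDP-GlcNAc to modify serine and threonine residues of cytosolic and nuclear proteins. It was the only measured gene of the 8 with a mean below naïve skin at 7 days. Ogt lay between 8.94 and 9.41 in naïve skin (median 9.25), at 9.04, 9.25, 9.02, 9.08 and 9.09 at 7 days and at 8.67, 8.80, 8.81, 8.69 and 8.74 at 14 days. All 14 day arrays were below all naïve and all 7 day arrays, which held for 6.66% of genes against naïve skin and for 11.6% against 7 days, while 9.07% had 14 day arrays all above the 7 day arrays. Ogt fell by 0.47 at 14 days against naïve skin (standard error 0.0818, 1.39-fold lower, limma adjusted p = 0.00276) and by 0.35 against 7 days (standard error 0.0855, adjusted p = 0.0147). Its 7 day difference was -0.12 (standard error 0.0818), which was not past the threshold. It was -0.03 without naïve replicates 4 and 5, and -0.23 and past the threshold without naïve replicates 1 and 2.

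The 14 day decrease of Ogt against naïve skin passed in all 28 alternatives, with differences from -0.77 to -0.37 and adjusted p from 1.48e-05 to 0.0263. Its 2 probesets gave different sizes. For the probeset drawn dashed in the plot of probesets the values were 8.60 to 8.82 at 14 days and 9.04 to 9.72 in naïve skin, a difference of -0.77 (standard error 0.121, limma adjusted p = 0.00151 over 20826 probesets). For the other they were 8.74 to 8.85 at 14 days and 8.84 to 9.10 in naïve skin, a difference of -0.18 (standard error 0.0533, adjusted p = 0.0287). Which transcripts each probeset reads was not examined.

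**Figure D3:**
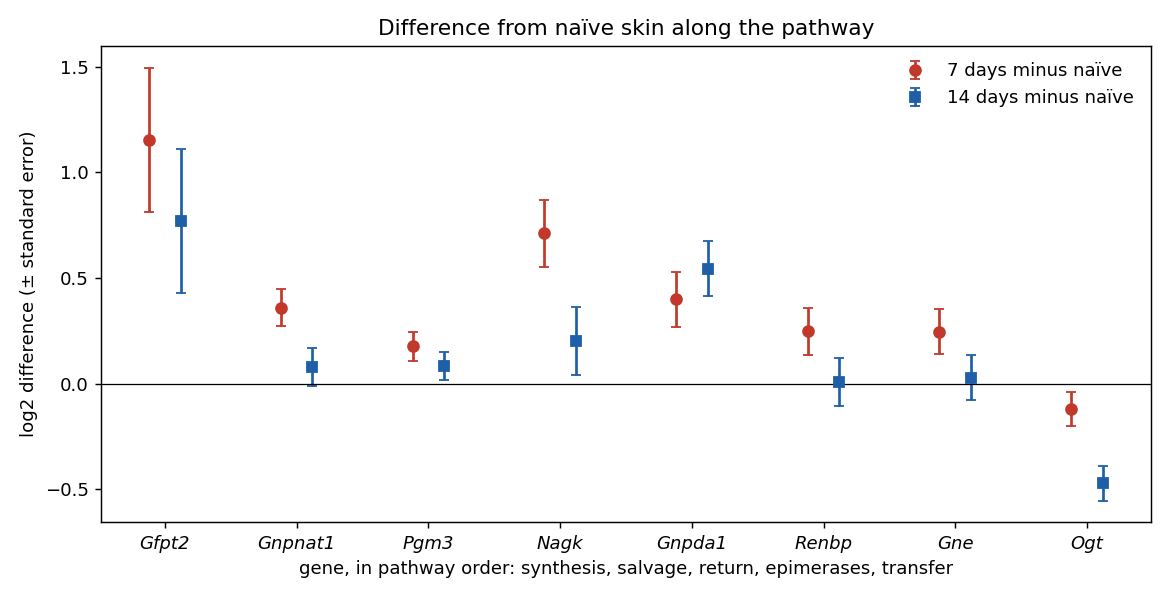
Log2 difference from naïve skin (vertical axis, ± standard error from limma) of the 8 measured genes in pathway order (horizontal axis), at 7 days (circles) and 14 days (squares) after denervation. The 7 day differences were above 0 for all genes but Ogt, and at 14 days Gnpda1 at 0.54 and Ogt at -0.47 stood on opposite sides.

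Counted together, 3 of the 8 genes (Gfpt2, Gnpnat1 and Nagk) passed limma at 7 days, all higher, where 10.5% of all genes passed, 7.85% higher and 2.66% lower. No gene of the 8 had 7 day arrays all above or all below the naïve arrays, as 3.31% and 1.35% of all genes had. The 7 day contrast chose the genes, so nothing is read from these counts. The median difference was 0.30 over the 8 genes and -0.02 over all genes. Without naïve replicates 4 and 5 none of the 8 passed at 7 days, and without naïve replicates 1 and 2 there were 5, of which 4 were higher and 1, Ogt, lower. At 14 days 2 of the 8 passed against naïve skin, a share near the 23.5% of all genes, of which 8.95% were higher and 14.6% lower, with a median difference of 0.08 against 0.02 over all genes. Between 14 and 7 days 3 of the 8 passed, all lower (Nagk, Gnpnat1 and Ogt), where 18.9% of all genes passed and 10.1% were lower, and the median was -0.26 against -0.01 over all genes. Over all genes 1260 were higher and 1430 lower between these times, against 917 higher and 736 lower after quantile normalizing again. The comparisons of 14 days share their naïve or their 7 day arrays with the contrast that chose the genes. Choosing genes that are high at 7 days and low in naïve skin favours a fall from 7 to 14 days. It also favours a rise from naïve skin to 14 days, so nothing is read from these counts either.

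The lower levels of Nagk and Gnpnat1 at 14 than at 7 days lay close to the threshold. Nagk no longer passed without any 1 of the 14 day arrays, without the 7 day replicate 2, 3 or 4 or without the naïve replicate 1, 4 or 6, and Gnpnat1 no longer passed without any 1 of the 14 day arrays, without the 7 day replicate 2, 3 or 4 or without the naïve replicate 3 or 6. Over all alternatives the adjusted p ran from 0.011 to 0.116 for Nagk and from 0.019 to 0.194 for Gnpnat1. With the arrays quantile normalized again, none of the 3 genes passed between the times, including Ogt (difference -0.21, adjusted p = 0.136).

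Macrophage and fibroblast genes moved with Gfpt2 and Nagk, and also with other genes of the 8. Over the 16 arrays, Pearson r with the macrophage score was 0.93 for Gfpt2, 0.90 for Nagk, 0.78 for Gnpnat1 and 0.75 for Renbp. It was 0.61 for Gnpda1, 0.59 for Pgm3, 0.58 for Gne and -0.28 for Ogt. These arrays share their groups, so the correlations are given as a description. All 12 listed macrophage markers were measured. By limma 9 were higher at 7 days and none lower, where 7.85% of all genes were higher and 2.66% lower. Macrophage scores were -1.50 to 0.58 in naïve skin, 0.27 to 1.00 at 7 days and -0.18 to 0.14 at 14 days. Of 9 fibroblast genes 4 were higher at 7 days, beside the same share of all genes. Fibroblast scores were -1.87 to 0.15 in naïve skin, 0.19 to 0.92 at 7 days and -0.04 to 0.29 at 14 days. The 7 day replicates 2 to 4 had macrophage scores of 0.96 to 1.00 and the highest Nagk values, whereas replicates 1 and 5, with scores of 0.27 and 0.27, had the lowest Nagk values of their group. Among naïve arrays, replicate 3 had the highest macrophage score, the highest Nagk value and the highest Gfpt2 value, and replicate 5 the lowest of each. Of 5 measured endothelial genes 3 were higher at 7 days, where 7.85% of all genes were higher. Between the times 2 were lower at 14 than at 7 days, where 10.1% of all genes were lower. Endothelial scores were -0.56 to 0.28 in naïve skin, -0.11 to 0.61 at 7 days and -0.23 to -0.05 at 14 days, beside means of Gne of 6.76, 7.00 and 6.78. The part of these cells in the differences was not tested.

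Gnpda1 moved with hair follicle genes and against muscle genes, and Ogt did the reverse. Over the 16 arrays, Pearson r with the hair follicle score was 0.87 for Gnpda1 and -0.84 for Ogt. With the muscle score it was -0.77 for Gnpda1 and 0.86 for Ogt, again as a description. Of 10 hair follicle genes 8 were higher at 14 days and none lower, where 8.95% of all genes were higher and 14.6% lower. Hair follicle scores were -3.58 to 1.85 in naïve skin, -0.75 to 1.48 at 7 days and 1.65 to 1.76 at 14 days. Of 10 muscle genes 6 were lower at 14 days and none higher, beside the same shares of all genes. Muscle scores were -0.63 to 0.93 in naïve skin, -0.79 to 0.55 at 7 days and -0.79 to -0.23 at 14 days. Naïve replicates 1 and 2, whose hair follicle scores were close to those of the 14 day arrays, had the lowest naïve Ogt values, 9.05 and 8.94, and the highest naïve Gnpda1 values, 7.98 and 8.03. Both still lay above every 14 day array in Ogt (8.67 to 8.81) and below every 14 day array in Gnpda1 (8.09 to 8.33). Naïve replicate 3, with a low hair follicle score of -3.305, had Gnpda1 at 7.88, close to replicates 1 and 2. The part of hair and muscle in these differences was not tested.

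**Figure D4:**
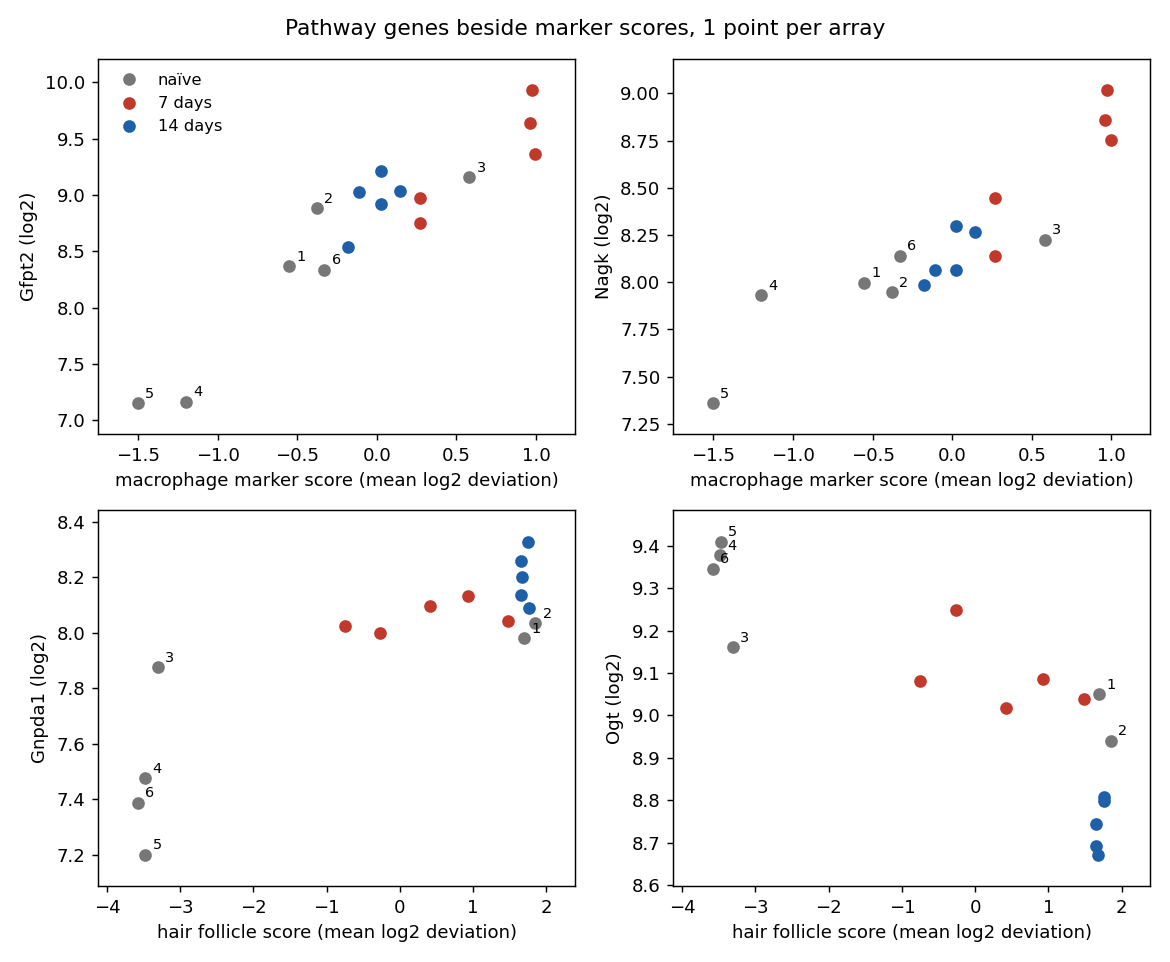
Log2 RMA values (vertical axes) of Gfpt2 and Nagk beside the macrophage marker score (upper panels, horizontal axis) and of Gnpda1 and Ogt beside the hair follicle score (lower panels), with 1 point per array and the replicate number beside each naïve array. The naïve arrays fell into separate clusters of hair follicle score, at 1.69 and 1.85 and at -3.58 to -3.31.

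For the 5 genes that passed in at least 1 comparison, the 3 genes with the highest correlation over the 16 arrays were all different genes. Gfpt2 counts among the 5 only through the contrast that chose the genes, so it is listed as a description and nothing is read from its pass. These Pearson correlations are over arrays that share their groups and are given as a description. Nagk was followed by Arfgap3 (r = 0.97), which encodes a Golgi GTPase-activating protein, Tmed3 (r = 0.97), which encodes a cargo protein of the early secretory pathway, and Atp8b2 (r = 0.97). Gfpt2 was followed by Ctsk (r = 0.97), the cathepsin K gene, Cyba (r = 0.97), a subunit of the phagocyte NADPH oxidase, and Antxr1 (r = 0.96). Gnpnat1 was followed by Selenof (r = 0.96), an endoplasmic reticulum selenoprotein gene, C5h1orf122 (r = 0.94) and Fbh1 (r = 0.94). Ogt was followed by Ctnnal1 (r = 0.97), Msantd4 (r = 0.97) and Iscu (r = 0.96), the last a scaffold for iron-sulfur clusters, and Gnpda1 by Epb41l1 (r = 0.95), Adam10 (r = 0.94), a membrane protease gene, and Ccdc71l (r = 0.94).

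Among 8 other measured genes of hexosamine metabolism, 2 passed limma at 7 days, both higher, where 10.5% of all genes passed. There were 1 at 14 days, lower, against 23.5% of all genes, and 2 between the times, both lower, against 18.9%. With so few genes these counts are not set apart from those shares, and the median differences of the list were 0.04, 0.03 and -0.02. Amdhd2, which encodes the deacetylase that reverses the Gnpnat1 step, was at 0.51 at 7 days (standard error 0.121, adjusted p = 0.0171) and at -0.38 at 14 days against 7 days (adjusted p = 0.0462). Galk2, a GalNAc kinase gene, was at 0.29 at 7 days (adjusted p = 0.0178) and at -0.44 between 14 and 7 days (adjusted p = 0.00273). Gpi, the isomerase gene that supplies fructose 6-phosphate, fell by 0.81 at 14 days (adjusted p = 0.0276). Oga, which encodes the enzyme that removes the mark set by Ogt, differed from naïve skin by 0.04 at 7 days (standard error 0.0597, adjusted p = 0.688) and by 0.02 at 14 days (standard error 0.0597, adjusted p = 0.784). Gnpda2, which encodes a second deaminase beside Gnpda1, differed by 0.05 (adjusted p = 0.647) and 0.03 (adjusted p = 0.755). Its group means of 3.93 to 3.98 lay near the lowest gene mean on these arrays, 3.39, so its flat signal says little about this gene.

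Genes of lysosomal glycan breakdown and of hyaluronan, not all of which act on GlcNAc itself, were measured as well. Of 7 measured lysosomal genes of glycan breakdown, 3 rose and none fell at 7 days, where 7.85% of all genes were higher. At 14 days 1 rose, where 8.95% of all genes were higher, and 6 were lower at 14 than at 7 days, where 10.1% of all genes were lower. Their median differences were 0.54 at 7 days, -0.01 at 14 days and -0.51 between 14 and 7 days, against -0.02, 0.02 and -0.01 over all genes. Naglu, the alpha-N-acetylglucosaminidase gene of heparan sulfate breakdown, was at 0.87 at 7 days (standard error 0.142, adjusted p = 0.00337), and Hgsnat, which encodes the acetyltransferase of that same breakdown, was at 0.25 (adjusted p = 0.025). Among the 4 measured hyaluronan genes, Has2, which encodes a hyaluronan synthase using UDP-GlcNAc, was at 1.18 at 7 days (standard error 0.19, adjusted p = 0.00333) and at -0.66 at 14 days against 7 days (adjusted p = 0.0332). Cd44, the hyaluronan receptor gene, was at 0.93 at 7 days (adjusted p = 0.00544). Has1 and Has3 were not analysed here. Lysosomal scores ran from 0.02 to 0.63 at 7 days and from -0.52 to 0.18 in naïve skin, with naïve replicates 4 and 5 the lowest, as in macrophage markers. Over the 16 arrays, Pearson r of Nagk was 0.96 with the lysosomal score and 0.90 with the macrophage score, given as a description.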

How the data were processed

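The authors deposited log2 values for 31099 probesets after robust multi-array averaging (RMA) of all 16 arrays, and the submitters' processing notes name RMA and R 3.0.1. Left out were 57 control probesets, 9780 without a gene and 436 annotated to several genes. Each gene was given the median of its probesets, with symbols from the platform annotation checked through Entrez identifiers in RefSeq. One linear model over all arrays with a mean for each group was fitted with limma 3.58.1 in R 4.3.3, with moderated statistics and Benjamini-Hochberg adjustment over 14217 genes at 0.05. The fit was tested on simulated data. The genes, lists, motifs and alternatives, including which naïve arrays were left out together, were chosen with earlier results of these data known. All 8 measured genes are named. Of other lists, those named are at most the 2 genes of lowest p per comparison, the opposing or duplicate enzymes and the hyaluronan synthases. The labels give no batches. The replicate numbers are not stated to pair animals, so the arrays were not treated as pairs. Correlations between the deviations of same-numbered arrays were of either sign, from -0.552 to 0.583. The design text counts animals, and p-values measure the spread between these arrays.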

Additional observations from a re-analysis of the deposited data

Results flagged for a closer look

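Nagk in naïve replicate 5, at 7.36, lay far below the nearest naïve array at 7.93, a gap of 0.662 of the range of that group. Of 24 gene and group combinations examined this was the only one past the limit, where chance gives about 5% of groups. The same array was the lowest in macrophage markers. Effects at the 2 times differed by limma in 3 genes when 14 days were set directly against 7 days, namely Nagk at -0.51, Gnpnat1 at -0.28 and Ogt at -0.35, and none of the 3 passed after the arrays were quantile normalized again. For Nagk and Gnpnat1 the choice of genes by high 7 day values favours a fall in this comparison.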

How the results depend on the processing

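At 14 days against naïve skin, 2 of the 8 genes passed whichever single array was left out, 1 (Ogt) at an adjusted p under 0.01 and 1 without naïve replicates 4 and 5. At 7 days the count of 3 became 0 at 0.01, 0 without naïve replicates 4 and 5, 0 with only the compared groups, 1 with the replicate block, 5 with array weights and 5 without naïve replicates 1 and 2, and it ran from 1 to 5 when single arrays were left out, the lowest without the 7 day replicate 3 or 4 and the highest without the 7 day replicate 1. Between 14 and 7 days the count of 3 became 0 at 0.01, 0 after quantile normalizing again and 1 without the lowest 25% of genes, among them Pgm3, and ran from 1 to 4 without single arrays; the replicate block gave 2, without Gnpnat1 (adjusted p = 0.081).

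Over all genes at 7 days, 1494 calls became 375 at 0.01, 3842 with array weights, 5040 without naïve replicates 1 and 2, 391 without naïve replicates 4 and 5, 295 with only the compared groups and 863 with the replicate block, and 629 (without the 7 day replicate 4) to 2667 (without naïve replicate 2) without single arrays. At 14 days 3343 became 788 at 0.01, 6983 with array weights, 6107 without naïve replicates 1 and 2, 959 without naïve replicates 4 and 5, 5022 with probesets singly, 1266 with the replicate block and 1663 (without naïve replicate 4) to 4840 without single arrays. There 1272 were higher and 2071 lower, against 898 and 2426 with array medians subtracted and 1715 and 1838 after quantile normalizing again. Between 14 and 7 days 2690 became 553 at 0.01, 4854 with array weights, 1775 without the lowest 25% of genes, 4267 without naïve replicates 1 and 2, 4405 with only the compared groups, 4064 with probesets singly, 1653 after quantile normalizing again and 1396 (without the 14 day replicate 5) to 3099 without single arrays.

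At 14 days against naïve skin the sign of Gne turned to -0.00462 with array medians subtracted, -0.118 with array weights and -0.0445 without naïve replicates 1 and 2, and ran from -0.00691 to 0.0875 without single arrays. Renbp turned to -0.0263, -0.08996 and -0.0543 under the same settings and -0.0463 without naïve replicates 4 and 5, and ran from -0.049 to 0.0626 without single arrays. No other measured gene of the 8 changed sign under these alternatives. The cause of these changes was not tested.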

Other observations

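Some GlcNAc transfer genes and some genes of sialic acid metabolism passed the test. Their shares were not set apart from those of all genes. Of 11 measured GlcNAc transfer genes, 1 rose and none fell at 7 days, where 7.85% of all genes were higher and 2.66% lower. At 14 days 1 rose and 3 fell, where 8.95% of all genes were higher and 14.6% lower, and 3 were lower at 14 than at 7 days, where 10.1% were lower. Mgat2, which encodes an enzyme of complex N-glycan branching, rose by 0.51 at 7 days (standard error 0.144, limma adjusted p = 0.0354). Gcnt2, the gene of a branching enzyme of poly-N-acetyllactosamine, fell by 0.67 at 14 days (standard error 0.115, adjusted p = 0.00257), and Mgat4b, another branching enzyme gene, fell by 0.59 (standard error 0.145, adjusted p = 0.0136). Of 9 sialic acid genes, 1 rose and 1 fell at 7 days and 2 fell at 14 days, beside the same shares of all genes. Nans, which encodes the synthase of sialic acid 9-phosphate, rose by 0.46 at 7 days (standard error 0.0892, adjusted p = 0.007), and Cmas, the gene of the enzyme that activates sialic acid, fell by 0.30 at 14 days (adjusted p = 0.0283) and fell by 0.45 at 14 days against 7 days (adjusted p = 0.00701). Neu2, a cytosolic sialidase gene, fell by 1.59 at 7 days (adjusted p = 0.0305) and fell by 1.68 at 14 days (adjusted p = 0.0165).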
